A study of Mus musculus with 12 samples.

Results

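The tripartite motif family (gene symbols beginning with Trim in the mouse) is a group of proteins built around a RING finger, B-box zinc fingers and a coiled coil, most of them ubiquitin ligases. Members were taken as the array rows to which the probe annotation gave exactly 1 gene symbol, made of Trim, a number and at most 1 letter from a to d. This gave 68 rows for 63 genes, out of 33793 rows in the file and 22180 genes with a row of 1 symbol. Trim7, Trim27, Trim34a, Trim42 and Trim54 have 2 rows each, and 7 further rows whose annotation joins a Trim symbol to other genes were left out.

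Type I interferon signals through its receptor to transcription factors that bind the interferon-stimulated response element in the promoters of antiviral genes. Several Trim proteins belong to that antiviral response: some mark viral proteins or the cell's own sensors with ubiquitin, and others restrain the signal once it is under way. The family also holds chromatin cofactors, muscle and nerve proteins and many members of restricted tissue distribution. In T cells, the antibody against CD3 stands in for antigen and starts activation through the T cell receptor complex.

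The cells were CD8+ lymphocytes from spleens of C57BL/6 mice, purified by removal of other cells. They were kept for 6 h in one of 4 conditions, with 3 arrays each: PBS alone (resting), PBS with IFN-4a, anti-CD3 antibody, and anti-CD3 with IFN-4a. The 12 arrays measured labelled total RNA. The labels used here give no age or number of animals. Nothing says that replicates came from separate animals or cultures, so p-values measure only the spread of these samples, and that spread may be technical.

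The deposited values are logarithms, taken here to base 2, and the authors had subtracted from every row its median across the arrays. They therefore give differences between arrays of 1 row and no level of any gene, and Trim genes cannot be ranked by abundance. Array medians lay between -0.0157 and 0.0165, and no array stood apart: the lowest correlation between arrays of 1 group was 0.727 and the highest between groups 0.543. Ifit1, an interferon-stimulated gene used to check the labels, was higher with IFN-4a by 5.16 in resting and 3.88 in stimulated cells, and Il2ra, an activation gene, was higher with anti-CD3 by 3.93 without and 2.95 with IFN-4a. Among markers of the purified cells, Cd8a and Cd3e were called in none of these comparisons. The same held with IFN-4a for every measured marker of erythroid cells and platelets, granulocytes, myeloid and dendritic cells, NK cells, helper T cells and B cells, except Eomes in stimulated cells (0.46). Eomes is also made by CD8+ T cells. Thy1 and Cd3d, both T cell markers, fell with IFN-4a in resting cells by 0.63 and 0.24. With anti-CD3, 4 of 6 CD8 T cell markers fell in each comparison, and markers of other cells moved too. The B cell genes Cd79b (-0.69 without and -0.43 with IFN-4a) and Cd79a (-0.21, with IFN-4a only), the NK cell gene Klre1 (-0.25 and -0.28) and the platelet gene Itga2b (-0.23, without IFN-4a only) were called lower. Eomes (1.59 and 2.02) and the dendritic cell gene Itgax (0.56 and 0.41) were called higher. The part of other cells in the Trim results was not tested, and fewer cells of a type cannot be told apart from less RNA per cell in such bulk samples.

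The decimal steps of the deposited values show whether a row stood at 8 or above on the log scale before centring, because single-precision numbers keep coarser steps there. On their 6 highest arrays, 24 Trim rows stood at 8 or above and 44 did not. That is 35.3% of the family against 30.1% of all rows with 1 symbol. A row below 8 would pass this reading by coincidence in 3.125% of cases. A row raised by a treatment can pass through the 6 arrays that had it, so the reading describes members and no count of calls is drawn from it.

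A row was called at an adjusted p under 0.05 (limma, Benjamini-Hochberg over the 23521 rows with 1 symbol). By these calls 7 Trim rows responded to IFN-4a only, 11 to anti-CD3 only and 15 to both. Either IFN-4a comparison called 32.4% of Trim rows, against 13% of all rows. Either anti-CD3 comparison called 38.2%, against 35.7% of all rows. The shares of all rows in each single class were not counted. Of the others, 34 rows of 31 genes were flat, meaning that no comparison called them and that the 95% interval of each of their 4 changes lay inside 1.5-fold. Trim43c stayed undecided because its intervals were wider. Calls in none of the 5 comparisons numbered 35 of 68 rows (51.5%), against 61.8% of all rows. The IFN-4a and anti-CD3 comparisons share arrays, so the class of 15 rows is a sorting of members and not a measure of how the responses relate.

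**Figure D1:**
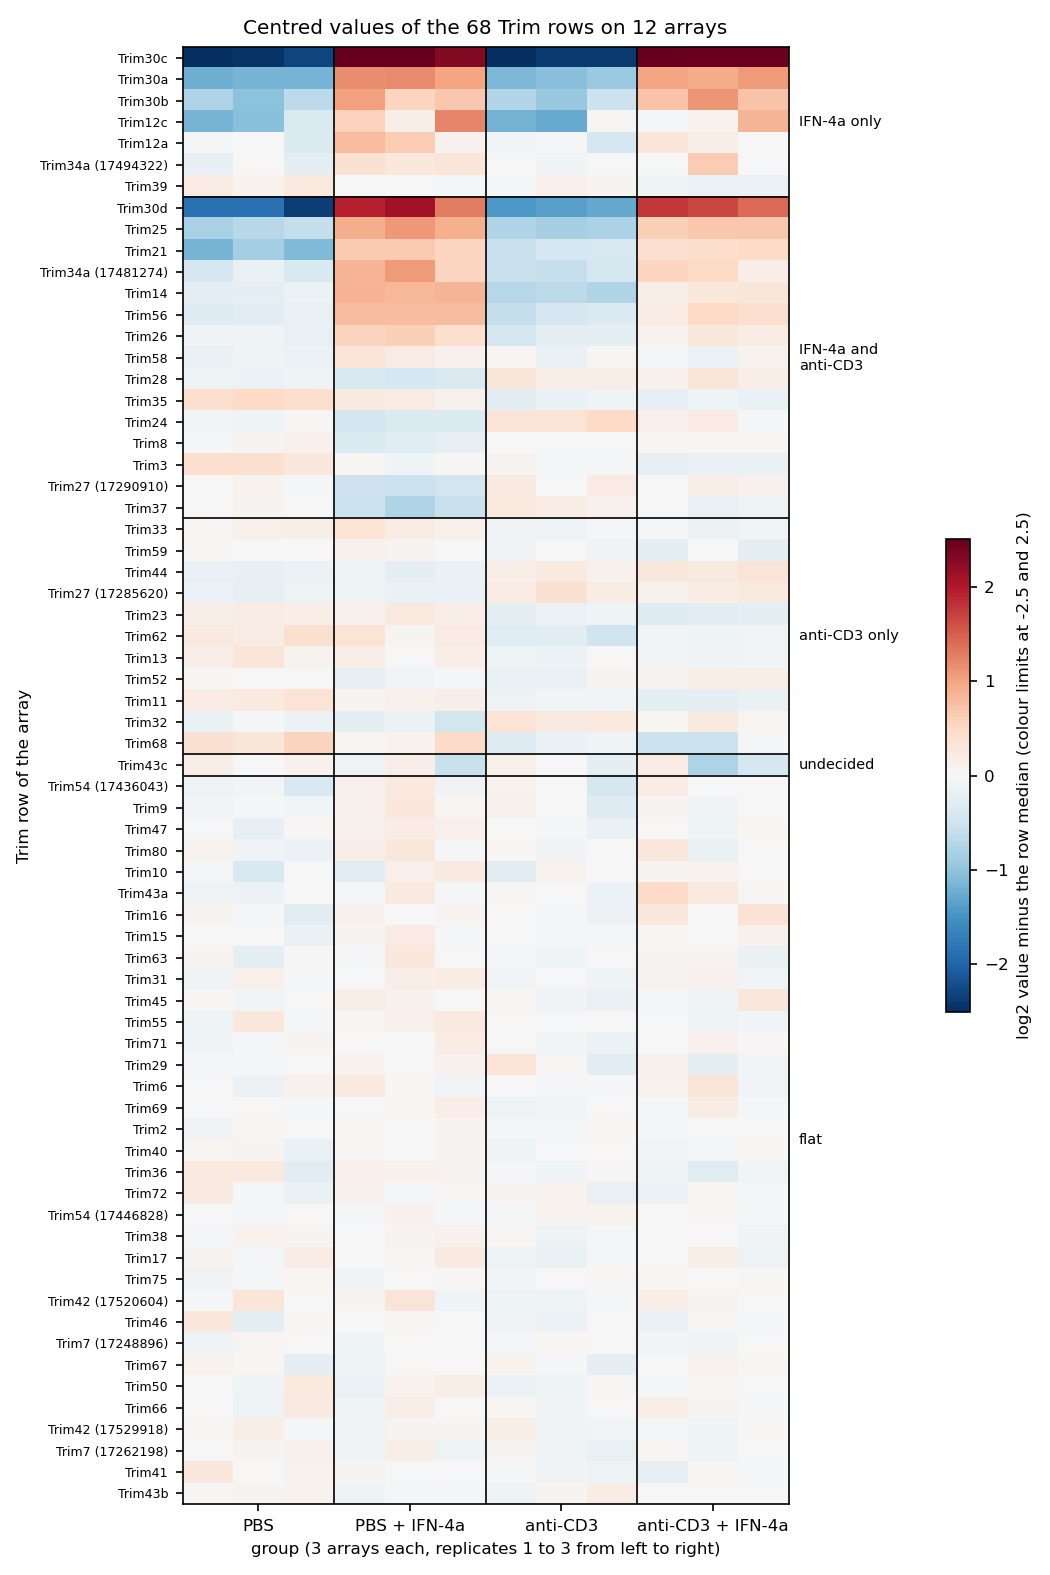
Centred values (log2 minus the row median, colour) of the 68 Trim rows on the 12 arrays, in 4 groups of 3, with rows sorted by class. Trim30c runs from -2.88 on a PBS array to 2.58 on an anti-CD3 with IFN-4a array, while the 34 flat rows at the bottom show group changes between -0.27 and 0.28.

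In resting cells IFN-4a raised 14 Trim rows, of 13 genes, and lowered 8. Together these are 32.4% of the family, against 12.2% called among all rows. By direction, 4.17% of all rows were called higher and 8.08% lower. A rise of at least 2-fold was seen for 10 Trim rows and for 0.77% of all rows. No Trim row fell that far, and of the 23521 rows with 1 symbol only 2 did. The median Trim change was 0.04, against -0.01 for all rows. In 27 Trim rows (39.7%) the 3 arrays with IFN-4a did not overlap the 3 without it, as in 30.4% of all rows.

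In stimulated cells IFN-4a raised 10 Trim rows and lowered none by limma's adjusted p. At an unadjusted p under 0.05, 5 were lower, and the share of all rows at that threshold was not counted. The share called by adjusted p was 14.7%, against 3.32% of all rows, of which 1.97% were higher and 1.36% lower. A rise of at least 2-fold was seen in 5 Trim rows and in 0.502% of all rows. The arrays did not overlap in 26 Trim rows (38.2%) and 21.1% of all rows. Every one of the 10 was also raised in resting cells. For each of them the 3 arrays with IFN-4a lay above the 3 without it in both states. The 10 were picked by calls on these same arrays, so the lack of overlap describes them and adds no support. The comparisons in resting and in stimulated cells use different arrays, and 1.64% of all rows were called higher in both. The 10 were Trim30a, Trim30b, Trim30c, Trim30d, Trim14, Trim21, Trim25, Trim26, Trim56 and row 17481274 of Trim34a.

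The 3 largest changes of the family were those of the Trim30 paralogs Trim30c, Trim30d and Trim30a. Trim30a, which restrains signalling downstream of Toll-like receptors, and its relatives Trim30b, Trim30c and Trim30d are neighbours in a Trim cluster on chromosome 7. Trim30c stood at -2.88, -2.45 and -2.30 on the PBS arrays and at 2.56, 2.57 and 2.30 with IFN-4a. After anti-CD3 its arrays read -2.77, -2.39 and -2.40, and with IFN-4a added 2.58, 2.45 and 2.45. The groups with and without IFN-4a were thus far apart in both states. Its change was 5.02 (SE 0.14, 32.4-fold, adjusted p = 1.51e-11) in resting cells and 5.01 (SE 0.14, 32.3-fold, adjusted p = 3.58e-11) in stimulated cells. The difference between those changes was -0.01, with a 95% interval from -0.43 to 0.42. Quantile normalization, run on the centred values, cut the resting change to 3.99 (15.9-fold), left 4.98 in stimulated cells and so gave a called difference of 0.99.

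Trim30d read -1.86, -1.86 and -2.35 on the PBS arrays and 1.95, 2.10 and 1.28 with IFN-4a. With anti-CD3 it read -1.43, -1.35 and -1.28, and 1.77, 1.67 and 1.42 with both agents. Again no array without IFN-4a reached one with it. The rise was 3.80 (SE 0.18, 13.9-fold, adjusted p = 6.66e-09) in resting and 2.97 (SE 0.18, 7.86-fold, adjusted p = 1.66e-07) in stimulated cells. After quantile normalization the resting change was 2.96 (7.77-fold). The difference of -0.82 between the states was not called (adjusted p = 0.227).

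Trim30a had the smallest standard error of the 4. Its PBS arrays lay at -1.22, -1.17 and -1.17, and those with IFN-4a at 1.16, 1.18 and 0.99. In stimulated cells it moved from -1.13, -1.05 and -0.92 to 0.98, 0.92 and 1.07. These are rises of 2.30 (SE 0.07, 4.92-fold, adjusted p = 4.24e-11) and 2.02 (SE 0.07, 4.07-fold, adjusted p = 3.09e-10). The 6 highest arrays of each of the 4 were those with IFN-4a. On these, Trim30b alone did not stand at 8 or above before centring, which gives no level without IFN-4a. Trim30b went from -0.77, -1.03 and -0.65 to 1.03, 0.55 and 0.68 in resting cells. With anti-CD3 the values were -0.72, -0.94 and -0.55, and 0.71, 1.10 and 0.71 once IFN-4a was added. It rose by 1.57 (SE 0.15, 2.96-fold, adjusted p = 8.92e-06) and 1.58 (SE 0.15, 2.98-fold, adjusted p = 1.19e-05).

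The pseudogene Trim30e-ps1, a further paralog that the member pattern does not take in, was called in none of the comparisons, with changes of -0.14 and -0.09 for IFN-4a in resting and stimulated cells. How far probes for one Trim30 paralog bind RNA of another was not tested, so the split among the 4 is uncertain, although they differed from each other in size of change.

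**Figure D2:**
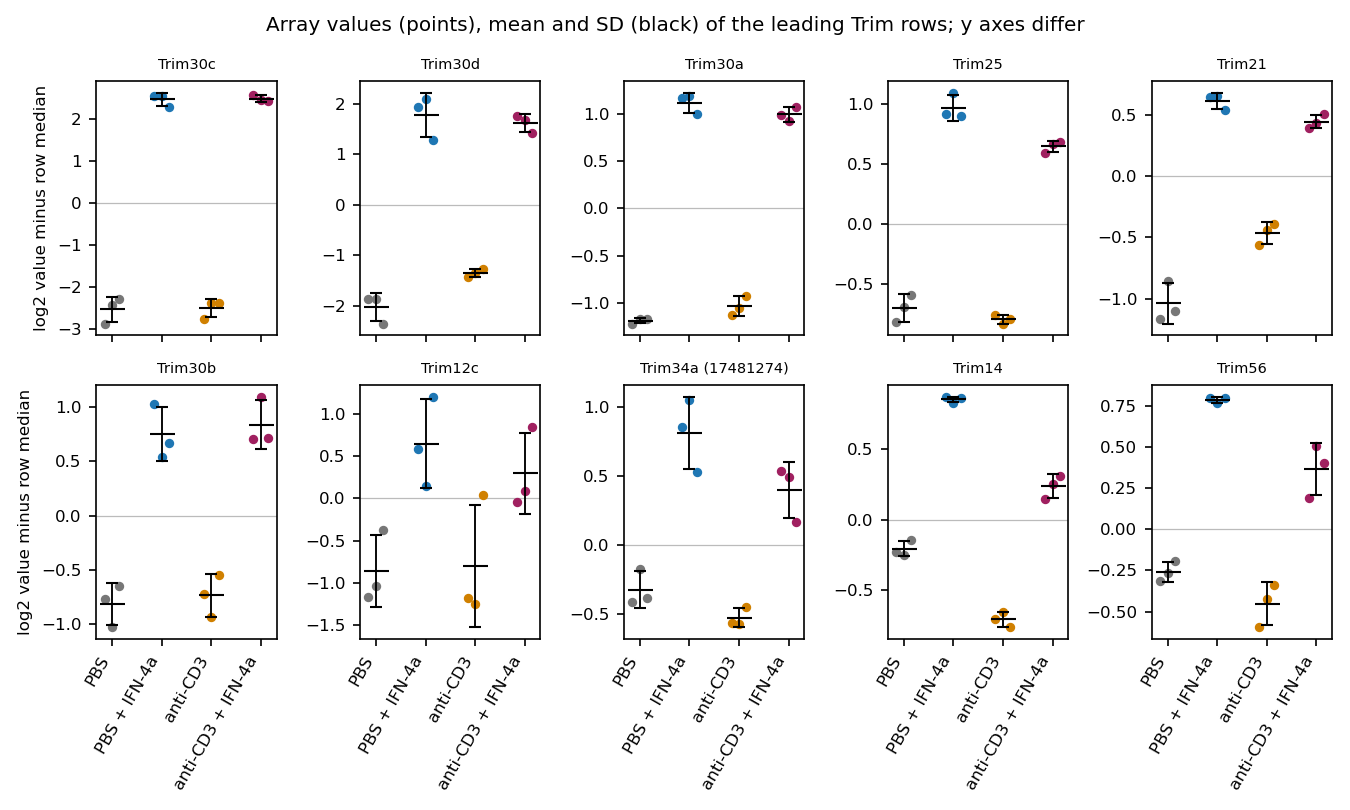
Array values (points, log2 minus the row median) with mean and SD of 3 arrays (black) in the 4 groups, for the 10 Trim rows called with a change of at least 1 on the log2 scale; the y axes differ between panels. In each panel the 3 PBS with IFN-4a arrays lie above the 3 PBS arrays; only for Trim12c do arrays of the anti-CD3 groups overlap with and without IFN-4a.

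Among the other raised members, those that act on sensors and adaptors of viral nucleic acid come first. Trim25, the ligase known for activating the RNA sensor RIG-I (Ddx58), read -0.82, -0.69 and -0.59 with PBS and 0.92, 1.09 and 0.90 with IFN-4a. In stimulated cells the readings were -0.76, -0.83 and -0.80 without and 0.59, 0.67 and 0.68 with it. Its rises were 1.67 (SE 0.07, adjusted p = 1.22e-09) and 1.44 (SE 0.07, adjusted p = 1.13e-08), and the groups stayed well apart. Trim14, a member without a RING finger that serves as an adaptor at the mitochondrial protein Mavs, went from -0.23, -0.25 and -0.15 to 0.86, 0.83 and 0.86 in resting cells. With anti-CD3 it lay lower in both arms, at -0.71, -0.65 and -0.76 without and 0.15, 0.25 and 0.31 with IFN-4a. IFN-4a thus raised it by 1.06 and 0.94 (SE 0.06 each).

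Trim56, an antiviral ligase linked to the DNA-sensing pathway, read -0.31, -0.27 and -0.19 with PBS and 0.80, 0.77 and 0.80 with IFN-4a. With anti-CD3 it read -0.59, -0.42 and -0.34, and 0.19, 0.51 and 0.40 with IFN-4a added. It rose by 1.04 in resting and 0.82 in stimulated cells (SE 0.08 each), without overlap. Trim26, which has been tied to turnover of the transcription factor Irf3, rose by 0.64 and 0.49 (SE 0.07 each, adjusted p = 6.93e-05 and 0.00147).

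Trim21 is a cytosolic receptor for antibody that directs antibody-coated particles to the proteasome. On the PBS arrays it lay at -1.16, -0.85 and -1.10, and with IFN-4a at 0.65, 0.65 and 0.54. The anti-CD3 arrays lay in between, at -0.56, -0.44 and -0.39, below those with both agents at 0.39, 0.44 and 0.50. IFN-4a raised it by 1.65 (SE 0.08, 3.14-fold, adjusted p = 6.29e-09) in resting cells and by 0.91 (SE 0.08, 1.88-fold, adjusted p = 6.26e-06) in stimulated cells. The difference between the changes was -0.74 (SE 0.11, adjusted p = 0.00465); it was -0.52 and narrowly missed the threshold after quantile normalization (adjusted p = 0.0506).

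The remaining raised members lie in the chromosome 7 cluster, apart from Trim58. Row 17481274 of Trim34a moved from -0.41, -0.17 and -0.38 to 0.86, 1.06 and 0.53 in resting cells, and from -0.56, -0.57 and -0.45 to 0.54, 0.49 and 0.17 in stimulated cells. Its rises were 1.14 and 0.93 (SE 0.12 each). The other Trim34a row, 17494322, which was not at 8 or above, rose by 0.47 (adjusted p = 0.0379) in resting cells and gave 0.26 in stimulated cells (adjusted p = 0.405). That call of row 17494322 was lost without any one of 6 arrays (PBS replicates 1 and 3, the 3 of PBS with IFN-4a, anti-CD3 replicate 2), with changes of 0.43 to 0.49.

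Trim12a and Trim12c, related to the retrovirus restriction factor TRIM5 of primates, were called for IFN-4a in resting cells only by the fit reported. Trim12c read -1.17, -1.04 and -0.37 with PBS, 0.59, 0.15 and 1.21 with IFN-4a, -1.19, -1.25 and 0.04 with anti-CD3, and -0.04, 0.08 and 0.85 with both. The array of replicate 3 was the highest of its group in all 4 groups, and the anti-CD3 groups overlapped. Its rise was 1.51 (SE 0.36, adjusted p = 0.0147) in resting cells; the change of 1.10 in stimulated cells (SE 0.36, adjusted p = 0.14) was called once array weights (1.49, adjusted p = 0.0105) or the replicate number as a block (1.10, adjusted p = 0.000213) were used. Without PBS replicate 1, PBS replicate 2 or PBS with IFN-4a replicate 3 the resting change was 1.35, 1.42 or 1.23 and not called. Trim12a showed the opposite offset, with replicate 3 the lowest in each group, and rose by 0.65 (SE 0.16, adjusted p = 0.0187). It was not called without PBS replicate 3 (0.54), or without replicate 1 (0.51) or 2 (0.59) of PBS with IFN-4a. In stimulated cells its change was 0.34 (adjusted p = 0.344), which the block called (adjusted p = 0.0405). For anti-CD3 with IFN-4a, Trim12a was called lower under the block (-0.36, adjusted p = 0.0046) and under array weights (-0.47, adjusted p = 0.0234). Trim58, a member of late red cell development, rose by 0.35 (adjusted p = 0.0109) in resting cells and gave 0.00 in stimulated cells; without replicate 1 of PBS with IFN-4a the resting value was 0.30 (adjusted p = 0.0521).

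The position of these genes is a feature the member rule did not use. In the RefSeq annotation of GRCm38.p6 the Trim genes of the chromosome 7 cluster follow each other in the order Trim6, Trim34a, Trim5, Trim12a, Trim34b, Trim12c, Trim30b, Trim30c, Trim30a and Trim30d. Of these, 8 had a row of their own, and 7 of the 8 were raised by IFN-4a in at least 1 state. The exception was Trim6, at one end, with changes of 0.08 and 0.13 and flat in every comparison. Trim21 lies on the same chromosome outside the cluster, so that 8 of the 13 raised genes are on chromosome 7, which carries 14 of the 63 Trim genes.

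Promoter sequences were looked at because so many members moved together. RefSeq windows of 300 bases (250 before and 50 after the annotated start, GRCm38.p6) were at hand for 49 of the 63 Trim genes and were searched on both strands for the interferon-stimulated response element, written GAAA, any 2 bases, GAAA. It was present for 8 of 49 Trim genes (16.3%), against 3.99% of 27025 genes. Of the 12 raised genes with a window, 7 held it (58.3%), and of the other 37 Trim genes 1 did, Trim2, a flat member, in 1 of its 5 windows. Counted by windows, since a gene can have several starts, the shares were 14.3% of 63 and 3.44% of 32851. None of the 5 genes with a window among the 8 with only lower calls for IFN-4a held a match, nor did any of the 8 with a window among the 10 that responded to anti-CD3 only. Trim3, Trim8, Trim35, Trim11 and Trim33 of these classes had no window. The gamma-activated site, spelled TTCNNNGAA, was searched in the same windows and was present for 12.2% of Trim genes and 9.55% of all. No Trim gene held both motifs. A match is a run of letters and not a shown binding site.

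The stretches around the matches are given 5′ to 3′ on the strand of each gene, with the matched letters in capitals. Likeness is seen within the pairs Trim30a and Trim30d, and Trim12a and Trim12c. Trim34a, also of the cluster, differs from these pairs, as do Trim21 and Trim26, with 2 overlapping matches each. The stretches printed leave out the second Trim30a window, which also held a match. They are Trim30a at chr7:104465200-104465249 (minus strand), Trim30d at chr7:104507861-104507910 (minus), Trim12a at chr7:104315466-104315505 (minus), Trim12c at chr7:104353349-104353398 (minus), Trim34a at chr7:104244447-104244486 (plus), Trim21 at chr7:102565453-102565489 (minus) and Trim26 at chr17:36836966-36837021 (plus).
Trim30a: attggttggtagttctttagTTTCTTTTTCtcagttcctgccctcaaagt
Trim30d: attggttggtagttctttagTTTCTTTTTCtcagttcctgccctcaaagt
Trim12a: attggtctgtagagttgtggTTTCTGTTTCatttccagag
Trim12c: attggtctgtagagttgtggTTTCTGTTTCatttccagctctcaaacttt
Trim34a: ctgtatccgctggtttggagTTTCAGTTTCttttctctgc
Trim21: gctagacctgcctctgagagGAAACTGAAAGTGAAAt
Trim26: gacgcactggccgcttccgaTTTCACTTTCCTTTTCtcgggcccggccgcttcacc

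The Trim30a and Trim30d stretches are identical over all 50 bases, and their full windows match at 90.8% of aligned positions. Between the other Trim30 windows, including a second annotated start of Trim30a, identity was 32.3% to 70.0%. The windows were aligned end to end, so a shift between annotated starts lowers these figures. They do not measure how related the promoters are. Trim30b, Trim30c, Trim25 and Trim56 had no match in their windows. Trim30c, the member with the largest change, held a gamma-activated site. Its window also reads ttcctttttctcagttcc where that of Trim30a reads TTTCTTTTTCtcagttcc, so it came close to a match. No match says only that these letters are not in this window.

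The lowered members changed by small amounts. The 8 rows lowered by IFN-4a in resting cells fell by 0.19 to 0.63 on the log2 scale, and 5 of them stood at 8 or above. None was called in stimulated cells by the fit reported, where their changes were -0.28 to 0.06; for 7 of the 8 the difference between the states was not called either. The row with the largest fall was Trim37, a ligase that controls centrosome assembly, at 0.01, 0.06 and -0.01 with PBS and -0.53, -0.75 and -0.55 with IFN-4a. It fell by 0.63 (SE 0.07, adjusted p = 5.94e-05), and in stimulated cells its change of -0.28 just missed the threshold (adjusted p = 0.0557). That change was called under array weights (-0.28, adjusted p = 0.0201), after quantile normalization (-0.28, adjusted p = 0.0313) and with the replicate number as a block (-0.28, adjusted p = 0.0457).

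Chromatin cofactors were among the lowered members. Trim28, the corepressor that links KRAB zinc finger proteins to histone methylation, fell by 0.27 (SE 0.06, adjusted p = 0.014), a call lost without replicate 2 of PBS with IFN-4a (-0.24, adjusted p = 0.0628). Trim24, a related bromodomain cofactor of nuclear receptors, fell by 0.34 (SE 0.07, adjusted p = 0.00774) and gave -0.28 in stimulated cells (adjusted p = 0.0504), a change called with array medians at 0 (-0.29, adjusted p = 0.0447) and under array weights (-0.29, adjusted p = 0.0143). Of their relatives, Trim33 gave 0.12 and was not called (adjusted p = 0.265), and Trim66 was flat. Also lowered were Trim8, a regulator of cytokine and NF-kB signalling (-0.34, adjusted p = 0.00108), Trim3 (-0.37, adjusted p = 0.00161), Trim35 (-0.27, adjusted p = 0.0112) and Trim39 (-0.19, adjusted p = 0.0482). The Trim35 call was lost after quantile normalization (-0.25, adjusted p = 0.0628). Trim39 lost its call in 15 of 22 alternative settings, and without any one array other than PBS replicate 2 or anti-CD3 replicate 1 (-0.21 to -0.16). In stimulated cells array weights called it lower (-0.21, adjusted p = 0.0406).

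The 2 rows of Trim27, a nuclear and cytoplasmic ligase, disagreed. Row 17290910 fell by 0.52 with IFN-4a in resting cells (adjusted p = 0.000334), from 0.00, 0.10 and -0.05 to -0.52, -0.53 and -0.46. Row 17285620 gave 0.01 there (adjusted p = 0.959), from -0.14, -0.20 and -0.12 to -0.10, -0.17 and -0.17. The mean of the 2 rows gave -0.26. Which of them follows the Trim27 transcript was not tested.

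Whether stimulation altered the response to IFN-4a was tested by subtracting the resting change from the stimulated one. This difference was called for 2 Trim rows, 1 in each direction (2.94%, against 0.855% of all rows). An unadjusted p under 0.05 was seen for 13 Trim rows, and the share of all rows at that threshold was not counted. Trim21 is the row called lower, as described. Trim8 was called higher, by 0.40 (SE 0.08, adjusted p = 0.0296): IFN-4a took it from -0.03, 0.08 and 0.12 to -0.34, -0.31 and -0.21 in resting cells, and from 0.00, -0.02 and 0.00 to 0.05, 0.05 and 0.05 in stimulated cells. The Trim8 call was lost in 11 of 21 alternative settings, among them leaving out any one array (0.37 to 0.40) other than PBS replicate 1 or PBS with IFN-4a replicate 3. In size, 9 of the 10 rows raised in both states had the smaller change in stimulated cells (medians 1.61 and 1.19), but only 5 of 10 did after quantile normalization. The same was not counted for the other rows of the array.

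**Figure D3:**
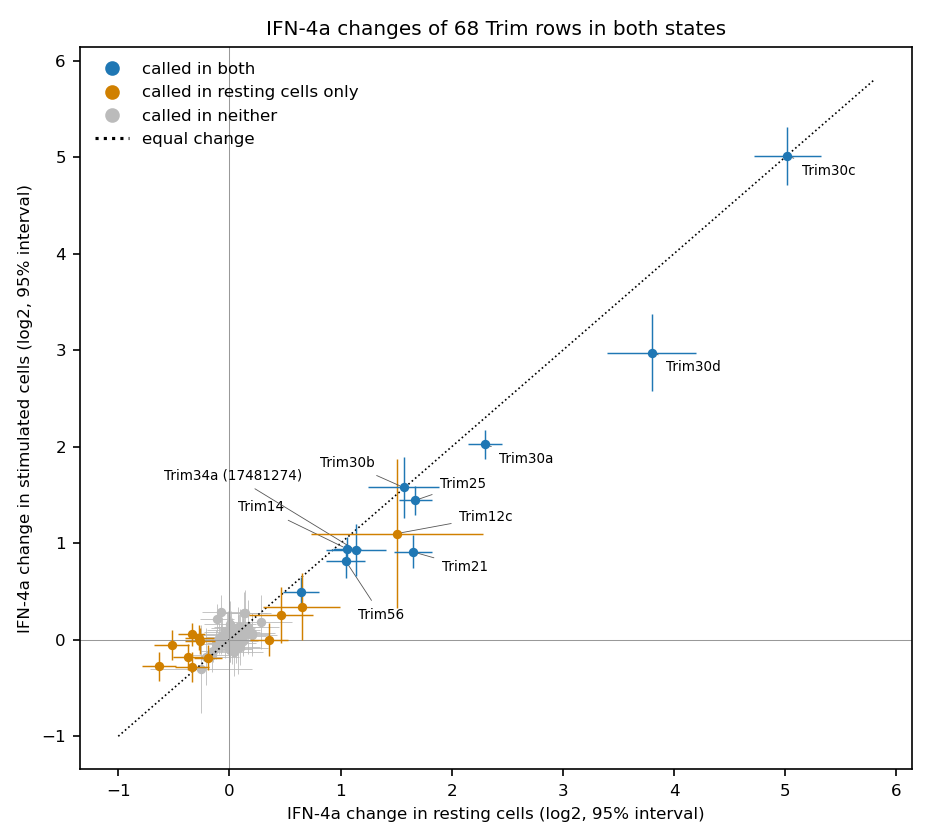
IFN-4a change in resting cells (x axis) against that in stimulated cells (y axis), both log2 with 95% intervals, for the 68 Trim rows, coloured by where they were called; the dotted line marks equal changes. Trim30c lies on the line at 5.02 and 5.01, Trim30d and Trim21 lie below it, and the 8 lowered rows lie left of 0 with changes between -0.28 and 0.06 in stimulated cells.

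Anti-CD3 called a share of the Trim rows near that of all rows, and the changes were small. Without IFN-4a it raised 7 Trim rows and lowered 9, which is 23.5% of the family against 31.4% of all rows (13.9% higher, 17.5% lower). With IFN-4a present it raised 9 and lowered 13, 32.4% of the family against 27.3% of all rows (12.8% higher, 14.5% lower). Groups did not overlap in 24 Trim rows (35.3%) without IFN-4a and in 28 (41.2%) with it, against 40.8% and 37.9% of all rows. In all, 26 Trim rows (38.2%) were called in either comparison, against 35.7% of all rows. No Trim row changed by 2-fold in either comparison. Of all rows, 2.61% and 2.7% rose at least that far, and 154 and 72 of 23521 fell that far. With shares this small, the lack of such a change among 68 rows is not a family result.

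These comparisons use different arrays, and 12 Trim rows were called in the same direction in both and none in opposite directions. The share of all rows called in both was not counted, so the 12 are a sorting of members and not a family result. The 5 that rose in both were Trim24 (0.43 and 0.49), Trim28 (0.33 and 0.58), row 17285620 of Trim27 (0.42 and 0.31), Trim32, a ligase of muscle and nerve (0.39 and 0.39), and Trim44, a member without a RING finger (0.34 and 0.44). Trim28 shows the pattern on single arrays: the PBS arrays read -0.13, -0.15 and -0.11 and the anti-CD3 arrays 0.30, 0.17 and 0.14. With IFN-4a the readings were -0.38, -0.44 and -0.36 without and 0.11, 0.30 and 0.16 with anti-CD3. Its groups did not overlap in either comparison.

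The 7 that fell in both were Trim14 (-0.50 and -0.61), Trim62, a ligase of the Card9 pathway (-0.64 and -0.28), Trim35 (-0.63 and -0.34), Trim68 (-0.60 and -0.57), Trim11 (-0.34 and -0.31), Trim23, which carries an Arf-type GTPase domain (-0.33 and -0.45), and Trim33 (-0.18 and -0.31). Trim62 read 0.25, 0.18 and 0.40 with PBS and -0.31, -0.28 and -0.50 with anti-CD3, the largest fall of the family in that comparison. Its fall with IFN-4a present was not called without replicate 1 of PBS with IFN-4a (-0.22) or replicate 2 of anti-CD3 with IFN-4a (-0.27). The fall of Trim33 without IFN-4a had an adjusted p of 0.0478 and was lost in 13 of 22 settings. They include leaving out PBS replicate 2 or 3, PBS with IFN-4a replicate 2, anti-CD3 replicate 1 or 2, or anti-CD3 with IFN-4a replicate 1 or 3 (-0.18 to -0.15).

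Some rows were called only in the absence of IFN-4a. Trim30d rose with anti-CD3 by 0.67 (SE 0.18, adjusted p = 0.0122), but it gave 0.51 without PBS replicate 3 (adjusted p = 0.0619) and turned to -0.29 after quantile normalization. Trim21 rose by 0.57 (SE 0.08, adjusted p = 6.01e-05), or 0.20 after quantile normalization (adjusted p = 0.0539). With IFN-4a present that normalization called it lower (-0.32, adjusted p = 0.0042). Trim13, an autophagy ligase of the endoplasmic reticulum, fell by 0.26, and Trim3 fell by 0.37; with IFN-4a present Trim3 was called lower under array weights (-0.17, adjusted p = 0.0474). The uncalled anti-CD3 changes of Trim30c (0.03) and Trim30a (0.15) became called falls of -1.19 and -0.43 after quantile normalization. That setting evened out row-centred values, not intensities, and array medians at 0 reversed no anti-CD3 change of a Trim row. The direction of anti-CD3 on the Trim30 paralogs without IFN-4a thus changed with this setting. Which scaling is right cannot be settled from centred values.

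Other rows were called only with IFN-4a present. Higher were row 17290910 of Trim27 (0.59), Trim37 (0.51), Trim8 (0.34) and Trim52 (0.22). Lower were Trim56 (-0.42), row 17481274 of Trim34a (-0.41), Trim26 (-0.34), Trim25 (-0.32), Trim58 (-0.24) and Trim59 (-0.22). After quantile normalization Trim25 (-0.48, adjusted p = 0.000153), Trim56 (-0.33, adjusted p = 0.0102) and row 17481274 of Trim34a (-0.41, adjusted p = 0.0195) were called lower without IFN-4a too. The smallest of these depended on single arrays. Without replicate 1 or 2 of PBS with IFN-4a, Trim52, Trim58 and Trim59 lost their calls. So they did without replicate 2 or 3 (Trim52), 1 or 2 (Trim58) or 1 or 3 (Trim59) of anti-CD3 with IFN-4a, and their changes then were 0.18 to 0.24, -0.25 to -0.18 and -0.21 to -0.17. Row 17481274 of Trim34a lost its call without PBS with IFN-4a replicate 1 (-0.39) or 2 (-0.29) or anti-CD3 with IFN-4a replicate 3 (-0.30). This comparison uses the PBS with IFN-4a arrays, on which Trim25, Trim26, Trim34a, Trim56 and Trim58 were high and Trim37, Trim8 and Trim27 low, so it is not independent of the IFN-4a changes in resting cells.

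**Figure D4:**
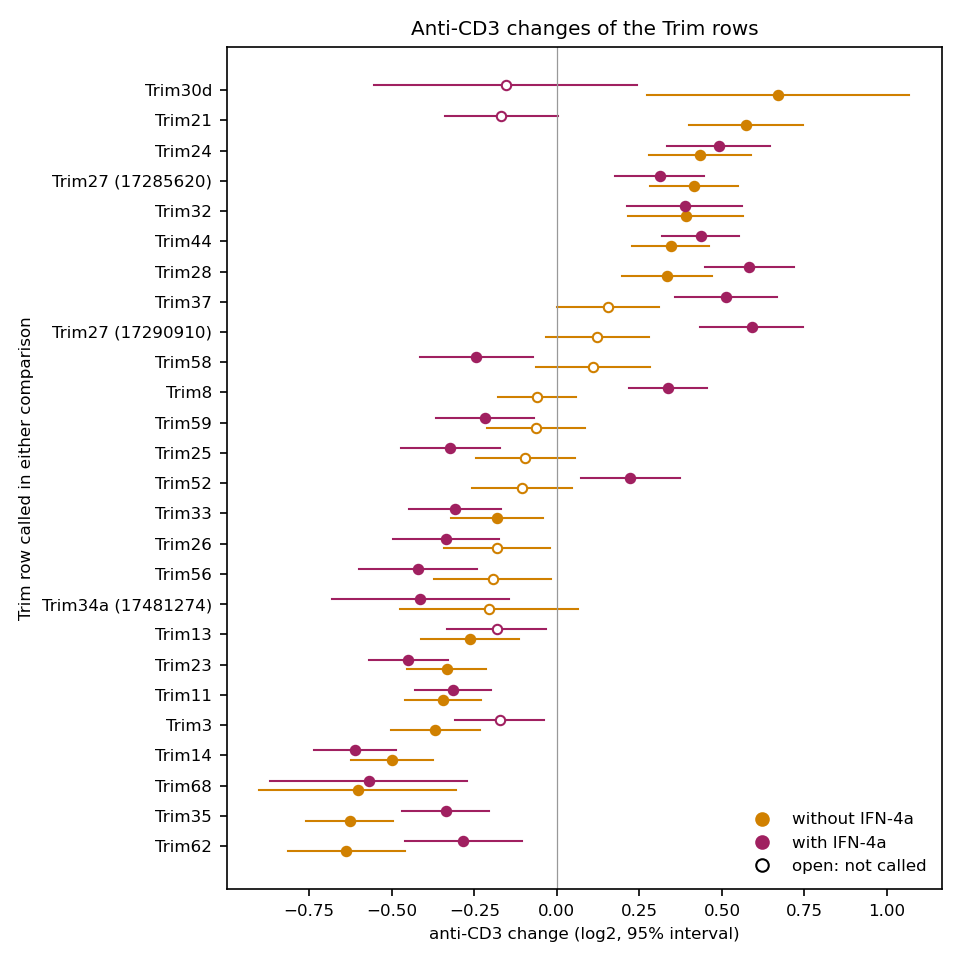
Anti-CD3 change (x axis, log2 with 95% interval) without IFN-4a (orange) and with IFN-4a (purple) for the 26 Trim rows called in either comparison, sorted by the change without IFN-4a; open points were not called. Trim24, Trim28, Trim32 and Trim44 lie right of 0 in both, and Trim14, Trim35, Trim62 and Trim68 left of 0 in both.

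The flat members were mostly rows that did not stand at 8 or above. This was so for 33 of the 34 flat rows, Trim55 being the exception. It was so for 4 of the 11 anti-CD3 only rows, 4 of the 15 called for both agents and 2 of the 7 IFN-4a only rows. A row raised by a treatment can pass the reading through the raised arrays, so the classes cannot be compared by it. The changes of the flat rows ran from -0.27 to 0.28, and the most extreme bounds of their intervals were -0.52 and 0.56. They include the muscle RING finger genes Trim54, Trim55 and Trim63, the membrane repair gene Trim72, the neural members Trim2, Trim9, Trim46 and Trim67, the erythroid member Trim10, and Trim71, a regulator of stem cells in the embryo. The others were Trim6, Trim7, Trim15, Trim16, Trim17, Trim29, Trim31, Trim36, Trim38, Trim40, Trim41, Trim42, Trim43a, Trim43b, Trim45, Trim47, Trim50, Trim66, Trim69, Trim75 and Trim80. A dim row can hide a change, so flat describes these measurements and not the genes. At least 1 alternative setting called 6 of the flat rows (Trim16, Trim36, Trim41, Trim43a, Trim55 and row 17436043 of Trim54), and none called the other 28. Array weights called Trim16 for IFN-4a in stimulated cells (0.33, adjusted p = 0.0303) and Trim41 for anti-CD3 without IFN-4a (-0.20, adjusted p = 0.0438). The replicate number as a block called row 17436043 of Trim54 for IFN-4a in resting cells (0.28, adjusted p = 0.0478). Trim43c gave 0.15, 0.00 and 0.11 with PBS and spread from -0.78 to 0.20 with both agents.

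Genes that work with the family were read from the same fits, and their counts stand beside the shares called among all rows: 4.17% higher and 8.08% lower for IFN-4a in resting cells, 1.97% and 1.36% in stimulated cells, 13.9% and 17.5% for anti-CD3 without IFN-4a, and 12.8% and 14.5% with it. Of 14 rows for 13 relatives with other symbols (such as Mid1, Mefv and Triml1), only Pml, the organiser of PML nuclear bodies, was called for IFN-4a, at 2.09 in resting and 1.43 in stimulated cells. It rose by 0.59 with anti-CD3 alone, and its IFN-4a change was smaller in stimulated cells by a called difference (-0.65). The other 13 rows were called in no comparison, and the list's median change in resting cells was 0.01, against -0.01 for all rows.

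Of 21 cytosolic sensing and signalling partners, 9 rose and 1 fell with IFN-4a in resting cells, and 6 rose in stimulated cells. The sensors led, with Ifih1 (4.29 and 3.01), Dhx58 (3.90 and 3.32) and Ddx58, the substrate of Trim25 (2.10 and 1.83), followed by the transcription factor Irf7 (3.43 and 2.32). The median over the list was 0.07 in resting cells, and Ikbke, a kinase, gave 0.07 and was not called. With anti-CD3, 7 rose and 6 fell without IFN-4a (13.9% and 17.5% of all rows), and 2 rose and 10 fell with it (12.8% and 14.5%).

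Of 21 rows for ubiquitin enzymes that serve RING ligases, 4 rose with IFN-4a in resting cells and 3 in stimulated cells. The leading ones were Usp18 (4.76 and 3.47), Uba7 (1.92 and 1.24) and Ube2l6 (1.83 and 1.46), which remove or attach the ubiquitin-like Isg15. Anti-CD3 raised 12 of the 21 rows and lowered 1 without IFN-4a (13.9% and 17.5% of all rows), and raised 7 and lowered 4 with it (12.8% and 14.5%). Ube2n, which builds ubiquitin chains used in signalling, rose by 0.54 and 0.36. The median IFN-4a change of these rows in resting cells was 0.06.

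Of 19 rows for partners of Trim28 in gene silencing, Morc3 alone was called for IFN-4a (0.92 and 0.54), while the median of the list was -0.11 in resting cells. Anti-CD3 raised 4 and lowered 9 of them without IFN-4a (13.9% and 17.5% of all rows), and raised 4 and lowered 8 with it (12.8% and 14.5%). Hdac2 rose by 0.67 and 0.77, and Smad4 fell by 0.66 and 0.56. Of 9 rows for type I interferon signalling, 5 rose in resting and 3 in stimulated cells, among them Stat2 (2.20 and 1.53) and Irf9 (1.76 and 0.66), with medians of 0.53 and 0.07. Anti-CD3 raised 5 and lowered 4 of the 9 without IFN-4a, and raised 2 and lowered 5 with it. The difference between the IFN-4a changes was called lower for 4 of the 9, against 0.591% of all rows: Usp18 (-1.29), Irf9 (-1.10), Irf1 (-0.77) and Stat2 (-0.67).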

How the data were processed

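The deposited table holds log2 expression values; base 2 is an assumption, since no label states it. Every row's median is 0, so the authors had centred the rows. How they normalized arrays and summarized probes, and with which software, is likewise not stated in the labels. Per the labels' protocols, biotin-labelled cRNA of total RNA was made with a WT Plus kit. Arrays give no count depth, and their number limits the precision. If the logarithm were natural, every printed fold would be larger.

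Groups came from the sample titles. Using limma 3.58.1 in R 4.3.3, group means were fitted over all 12 arrays with eBayes, two-sided (residual degrees of freedom 8, prior 4.95). The 5 comparisons were the IFN-4a change in each state, the anti-CD3 change at each IFN-4a condition, and the difference between both IFN-4a changes. Benjamini-Hochberg adjustment ran over the 23521 rows with 1 gene symbol in the probe annotation; 1814 rows with several symbols and 8458 with none were not named. The code was tested on simulated data. Array values are given for every Trim30 paralog and each Trim row called with a change of at least 1; list genes are the largest called ones, at most 4 a list. The members and lists were chosen with earlier results of these data known. Alternatives were quantile normalization of the deposited centred values, array medians at 0, only the groups compared, array weights and robust shrinkage. Others were a replicate block, mean rows per gene, all rows, bright rows only, no moderation, and leaving out each array. A planned comparison of Trim30 protein sequences was not run. Promoters are from RefSeq (GRCm38.p6).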

Additional observations from a re-analysis of the deposited data

Results flagged for a closer look

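The response to IFN-4a differed between resting and stimulated cells for 2 Trim rows, by the test of the difference itself (change in stimulated minus change in resting cells). Trim21 gave -0.74 (adjusted p = 0.00465), its rise being 1.65 in resting and 0.91 in stimulated cells. Trim8 gave 0.40 (adjusted p = 0.0296), its change being -0.34 in resting and 0.06 in stimulated cells. Neither call held in every alternative setting. The Trim21 call was lost after quantile normalization (-0.52, adjusted p = 0.0506), and the Trim8 call in 11 of 21 settings.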

How the results depend on the processing

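Counts of called Trim rows stayed within 1.5 times those reported under most alternatives. Array weights gave 16 rows for IFN-4a in stimulated cells (13 higher, 3 lower) in place of 10, and quantile normalization gave 1 for the difference between states in place of 2. That 1 row was Trim30c, at 0.99. Leaving out 1 array at a time gave 18 to 22 rows for IFN-4a in resting cells, 10 to 12 in stimulated cells, 15 to 18 for anti-CD3 without and 17 to 24 with IFN-4a, and 1 to 3 for the difference. Every alternative kept the calls of all 10 rows raised in stimulated cells, 15 of 22 calls in resting cells, 13 of 16 for anti-CD3 without IFN-4a, 17 of 22 for anti-CD3 in its presence, and 0 of 2 differences. Reversed values under quantile normalization were those for anti-CD3 without IFN-4a of Trim30c (-1.19), Trim30a (-0.43) and Trim30d (-0.29), and the difference for Trim30c (0.99); the cause was not tested. With the mean of its rows, Trim27 row 17285620 took -0.26 for IFN-4a in resting cells, which is the mean with the lower row.

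With the replicate number as a block the counts were 22, 13, 15, 23 and 2. The numbers were not treated as a pairing: 8 of 18 same-number pairs had correlated deviations over 0.1 (range -0.08 to 0.27, against -0.25 to 0.18 for other numbers). Under the block, Trim12c and Trim12a, whose replicate 3 stood apart in every group, and Trim37 were called in stimulated cells (adjusted p = 0.000213, 0.0405 and 0.0457), and Trim54 row 17436043 in resting cells (0.0478). Trim39 in resting cells (adjusted p = 0.0696) and Trim33 for anti-CD3 without IFN-4a (0.0642) lost their calls. Trim12a was then also called lower for anti-CD3 with IFN-4a (adjusted p = 0.0046).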
